A study of Bos indicus with 5 samples.

Results

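The genes described here mark lymphocytes, the T cells, natural killer (NK) cells and B cells of the adaptive and innate immune system, in the ampulla of the cow oviduct. Members were chosen by symbol, from a list of 35 gene symbols. The rule used no values, but the list was drawn up with earlier results of these data known. Of these, 34 symbols were found, in 37 entries of the 24616 genes in the table, because GZMA, GZMB and LAT each name 2 entries. CTLA4 was not analysed here.

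Transcripts of whole ampulla, covering the full thickness of the wall, were sequenced from healthy multiparous, non-lactating Nelore (Bos indicus) cows whose ages were not stated. Groups were 2 LF/LCL cows (large follicle, large corpus luteum) and 3 SF/SCL cows (small follicle, small corpus luteum), 1 library for each cow. The study had dropped 1 further LF/LCL ampulla sample, whose library was of poor quality and gave few reads. All cows had been pre-synchronized with a GnRH agonist and the prostaglandin F2α analog cloprostenol (0.5 mg). They carried an intravaginal device with 1 g of progesterone, placed together with 2 mg of estradiol benzoate. LF/LCL cows also received the prostaglandin analog when the device was placed. Their devices came out 42 h before the ovulation-inducing GnRH injection, against 30 h in SF/SCL. The analog was given to every cow at removal and again later. Tissue was taken on day 4 from the side of the corpus luteum. The cows were ranked by follicle size, estradiol, corpus luteum area and progesterone, and the extremes were sequenced, so each group stands for an end of the range and not for its average cow.

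Lymphocytes are resident in the mucosa of the reproductive tract, where T cells lie mainly within and beneath the epithelium. T cells recognize antigen through a receptor whose signal is carried by the CD3 chains and the zeta chain (CD247) to the kinases LCK and ZAP70 and the adaptor LAT. Cytotoxic T cells and NK cells kill through perforin and granzymes, and B cells signal through CD79A and CD79B. In bulk tissue, fewer cells of a type and less RNA per cell cannot be told apart.

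Libraries held 13418278 to 19592174 reads assigned to genes, and each value is the reads of a gene over the size factor of its library (normalized reads). Of 15815 genes tested (mean value over 5), 8032 (50.8%) had a log2 fold change above 0, that is, were higher in LF/LCL. The first principal component of all genes tested (36.9% of the variance) separated the groups, with scores of -42.4 and -40.6 for LF/LCL. SF/SCL replicates 1 and 2 had 12.1 and 11.4, and SF/SCL replicate 3 lay furthest from LF/LCL, at 59.5. Oviductin (OVGP1), the defining secretory product of this epithelium, had 142113 and 117179 normalized reads in LF/LCL against 122187, 147247 and 137422 in SF/SCL.

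Lymphocyte transcripts were higher in LF/LCL as a group, but no single gene passed the limma test. Of the 37 entries 32 passed the filter on low values, and in none of these 32 was the mean of the lower group at or below the filter. Among them 29 were higher in LF/LCL, against 50.8% of all genes tested, and the median log2 fold change was 0.78, against 0.01 over all genes. The groups did not overlap in 19 entries that were higher in LF/LCL (59.4%, against 15% of all genes tested) and in 1 that was higher in SF/SCL (against 15.1%). With limma, 0 of the 32 had an adjusted p under 0.05 (0% of all genes tested), and their adjusted p ran from 0.235 to 0.994. At an unadjusted p under 0.05 there were 9 higher in LF/LCL (28.1%, against 5.64% of all genes) and 1 higher in SF/SCL (against 5.86%). The edgeR quasi-likelihood test also called 0 members, with 10 at an unadjusted p under 0.05, and DESeq2 called 1, CD247, where it called 1.38% of all genes as higher in LF/LCL. Members that label the same cells are not independent of each other, so these counts describe the list and carry no test.

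**Figure D1:**
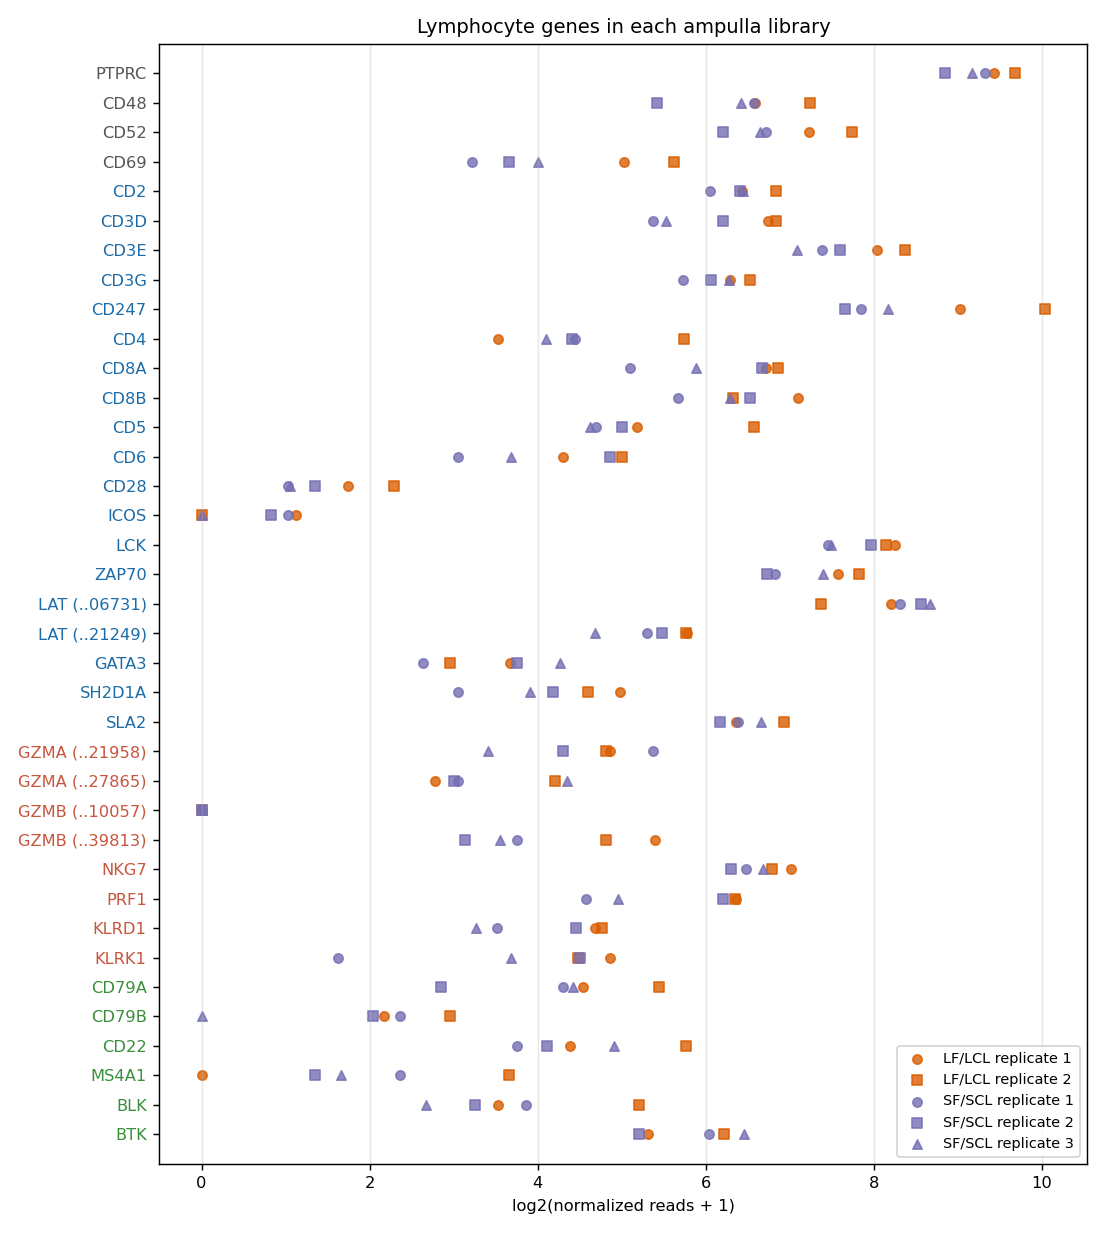
Level of each of the 37 entries, as log2(normalized reads + 1) on the x axis, with 1 point per library; LF/LCL libraries are orange and SF/SCL libraries purple, and gene names are coloured grey (shared by leukocytes), blue (T lineage), red (NK and cytotoxic) and green (B lineage). Entries that share a symbol carry the last 5 digits of their Ensembl identifier, and in 19 of the 32 entries tested both orange points lie to the right of all purple points.

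The highest values were spread unevenly over the cows. LF/LCL replicate 2 was the highest library in 19 of the 32 entries tested and LF/LCL replicate 1 in 8, whereas SF/SCL replicate 3 was highest in 4, SF/SCL replicate 1 in 1 and SF/SCL replicate 2 in 0. The lowest value was in SF/SCL replicate 1 for 13 entries and in SF/SCL replicate 2 for 10. Without LF/LCL replicate 2 the members at an unadjusted p under 0.05 in LF/LCL went from 9 to 2, CD247 and GZMB (ENSBTAG00000039813), a share near the 4.82% of all genes in that fit, while 27 of 32 were still higher in LF/LCL. In that fit the remaining LF/LCL cow is assumed to vary like the SF/SCL cows. Without SF/SCL replicate 3, 31 of 32 were higher in LF/LCL and the groups did not overlap in 21 of these (against 20.6% of all genes in that fit).

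**Figure D2:**
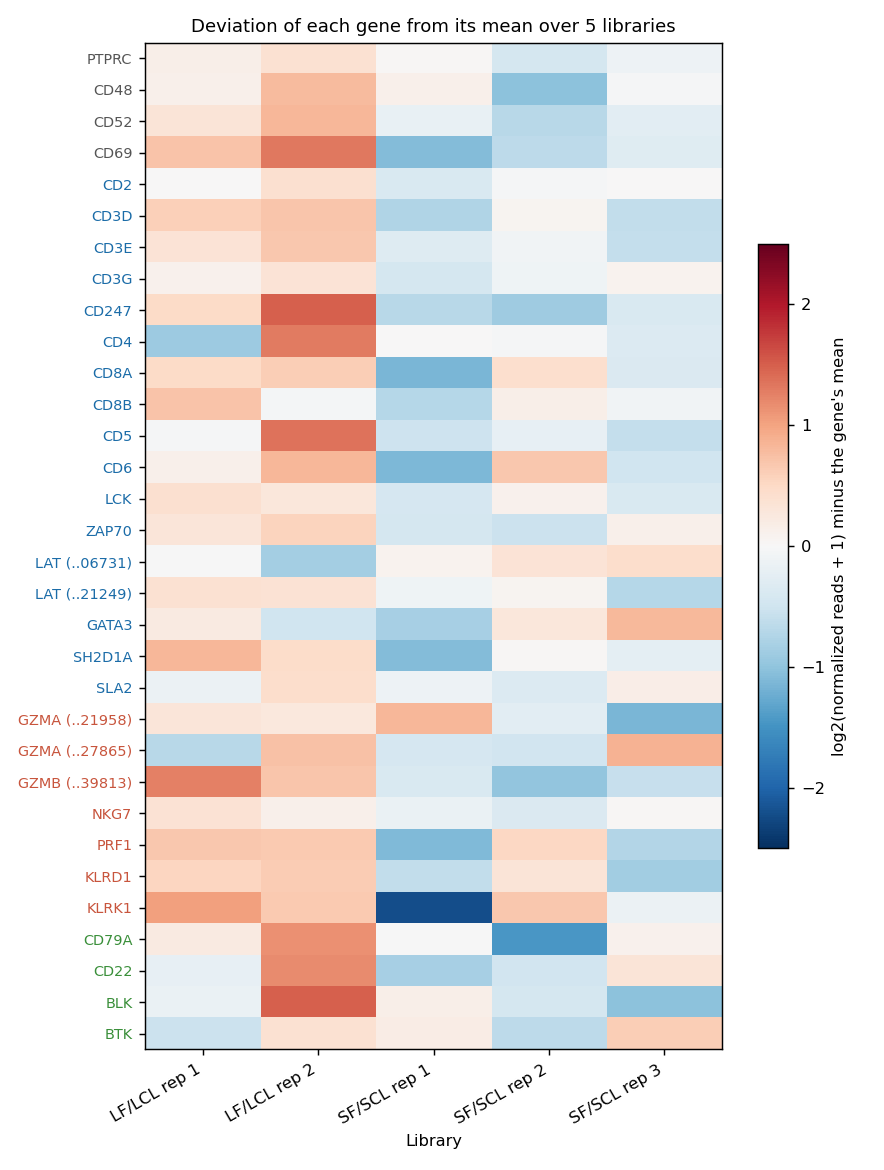
Deviation of each of the 32 entries tested from its own mean over the 5 libraries, in log2(normalized reads + 1), by library on the x axis; red is above and blue below the mean. LF/LCL replicate 2 is the reddest column, with the highest value in 19 entries, and the bluest cell is KLRK1 in SF/SCL replicate 1, at -2.21.

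All 4 genes shared by all or most leukocytes were higher in LF/LCL, free of overlap between the groups, with a median log2 fold change of 0.87. PTPRC (ENSBTAG00000023144), which encodes the CD45 phosphatase of nucleated blood cells, had 689.6 and 816 normalized reads in LF/LCL against 638, 459 and 575 in SF/SCL (log2 fold change 0.44 ± 0.18 (SE), limma adjusted p 0.424). CD52, a small glycoprotein anchored on lymphocytes, had 149 and 213 normalized reads in LF/LCL against 104, 73.1 and 98.7 in SF/SCL (log2 fold change 0.96 ± 0.29, limma adjusted p 0.33). For CD48, a ligand of the SLAM receptor family, values were 95 and 150.0 normalized reads in LF/LCL against 94.6, 42.0 and 84.8 in SF/SCL (log2 fold change 0.77 ± 0.44, limma adjusted p 0.564), with almost no gap between LF/LCL replicate 1 and SF/SCL replicate 1. CD69, an early marker of lymphocyte activation that also marks tissue-resident T cells, showed the widest separation of these 4, with 31.7 and 48.4 normalized reads in LF/LCL against 8.32, 11.7 and 15 in SF/SCL, and a log2 fold change of 1.70 ± 0.49 (SE), which is the largest of all 32 entries (limma adjusted p 0.323).

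The 4 signaling chains of the T cell receptor were all higher in LF/LCL, with log2 fold changes from 0.39 (CD3G) to 1.64 (CD247) and no overlap between the groups. CD247 (ENSBTAG00000012700), the zeta chain that also serves NK cell receptors, had 521 and 1051 normalized reads in LF/LCL against 229, 200.51 and 287 in SF/SCL. The LF/LCL cows differed widely from each other, yet the lower of them lay far above the highest SF/SCL cow. Its log2 fold change was 1.64 ± 0.32 (SE), with a limma unadjusted p of 0.0023 that did not survive adjustment over all genes (0.235). With DESeq2 the log2 fold change was 1.72 ± 0.36 (SE) and the adjusted p 0.000281, the only member that any of the tools called. It was also at an unadjusted p under 0.05 in each of the 5 fits that left out 1 library.

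CD3E (ENSBTAG00000015710), the epsilon chain, had 262 and 329 normalized reads in LF/LCL against 165, 193 and 135 in SF/SCL (log2 fold change 0.85 ± 0.23 (SE), limma adjusted p 0.306). CD3D, the delta chain, had 106 and 113 normalized reads in LF/LCL against 40.5, 73.1 and 45.1 in SF/SCL (log2 fold change 1.08 ± 0.35, limma adjusted p 0.36). In both, every LF/LCL value lay well above every SF/SCL value. CD3G, the gamma chain, had 77.4 and 91.0 normalized reads in LF/LCL against 52.0, 66.1 and 76.2 in SF/SCL. LF/LCL replicate 1 barely exceeded SF/SCL replicate 3, and the log2 fold change was 0.39 ± 0.31 (limma adjusted p 0.684). CD3E, CD3D and CD3G are consecutive protein-coding genes in the RefSeq annotation of the Bos indicus assembly NIAB-ARS_B.indTharparkar_mat_pri_1.0, where the names of 31 of the 35 members were found. Whether the change of these neighbours differed was not tested. Within a library, the ratio of CD247 to CD3E values was 1.99 and 3.19 in LF/LCL against 1.38, 1.04 and 2.12 in SF/SCL, so that the groups overlapped, and the ratio of CD3E to PTPRC also overlapped (0.379 and 0.403 against 0.259, 0.420 and 0.235).

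The coreceptors that divide helper from cytotoxic T cells did not separate the groups in the same way. CD8A, the alpha chain of the cytotoxic coreceptor, had 104 and 115 normalized reads in LF/LCL against 33.3, 101 and 58.0 in SF/SCL, and SF/SCL replicate 2 came close to LF/LCL replicate 1. CD8B, the beta chain encoded next to it, had 136 and 79.4 normalized reads in LF/LCL against 49.9, 90.9 and 77.3 in SF/SCL, with LF/LCL replicate 2 inside the SF/SCL range. Log2 fold changes were 0.91 ± 0.49 and 0.55 ± 0.39, with limma adjusted p of 0.537 and 0.647. CD4, the helper coreceptor, which macrophages can also carry, had 10.6 and 52.3 normalized reads in LF/LCL against 20.8, 20.2 and 16.1 in SF/SCL. The LF/LCL cows were thus the lowest and the highest of the 5, and the log2 fold change was 0.32 ± 0.71 (SE) (limma adjusted p 0.908), a sign that turned, to -0.79, without LF/LCL replicate 2. The ratio of CD8A to CD4 values was 9.89 in LF/LCL replicate 1 and between 1.6 and 5.0 in the other 4 libraries.

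Costimulatory and adhesion receptors of T cells were highest in LF/LCL replicate 2 where they could be measured. CD5, which restrains antigen receptor signaling, had 35.2 and 93.9 normalized reads in LF/LCL against 25.0, 31.1 and 23.6 in SF/SCL. CD6, its neighbour in the genome, had 18.8 and 31.0 normalized reads in LF/LCL against 7.28, 28 and 11.8 in SF/SCL, and SF/SCL replicate 2 lay between the LF/LCL cows. For CD2, the adhesion receptor of T and NK cells, values were 85.6 and 113 normalized reads in LF/LCL against 65.5, 83.9 and 85.9 in SF/SCL, with LF/LCL replicate 1 below SF/SCL replicate 3. Log2 fold changes were 1.10 ± 0.51, 0.79 ± 0.67 and 0.33 ± 0.29, with limma adjusted p of 0.477, 0.708 and 0.713. CD28, the main costimulatory receptor, was near the limit of detection with 2 and 4 reads in LF/LCL against 1, 2 and 1 reads in SF/SCL, and ICOS, an inducible costimulator, had 1 and 0 reads in LF/LCL against 1, 1 and 0 reads in SF/SCL. A count of 0 reads allows up to 2.90 normalized reads in LF/LCL replicate 2 and 3.22 in SF/SCL replicate 3, a limit that covers counting error only. Neither gene entered the test.

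Kinases and adaptors behind the receptor were mostly higher in LF/LCL, and 1 of the LAT entries was lower. LCK, the kinase that starts the signal, had 305 and 283 normalized reads in LF/LCL against 174, 249 and 178 in SF/SCL (log2 fold change 0.57 ± 0.22 (SE), limma adjusted p 0.414). ZAP70, which binds the phosphorylated CD3 and zeta chains, had 190.0 and 225 normalized reads in LF/LCL against 112, 105 and 167 in SF/SCL (log2 fold change 0.72 ± 0.27, limma adjusted p 0.414). The groups did not overlap in either kinase. The adaptor LAT was listed under a pair of Ensembl genes whose differences had opposite signs. LAT (ENSBTAG00000021249) had 53.9 and 53.2 normalized reads in LF/LCL against 38.5, 43.5 and 24.7 in SF/SCL, higher in both LF/LCL cows, with a log2 fold change of 0.62 ± 0.39 (limma adjusted p 0.599). LAT (ENSBTAG00000006731) had 294 and 165 normalized reads in LF/LCL against 316, 378 and 406 in SF/SCL, lower in both, with a log2 fold change of -0.73 ± 0.28 (SE) and a limma adjusted p of 0.413. The RefSeq annotation named above holds a single gene called LAT. Which entry is the lymphocyte adaptor was not tested, and reads of near-identical copies may be split between entries or lost.

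SH2D1A, the SLAM-associated adaptor of T and NK cells, had 30.5 and 23.2 normalized reads in LF/LCL against 7.28, 17.1 and 14.0 in SF/SCL, without overlap. SLA2, an adaptor that dampens receptor signaling, had 80.9 and 121 normalized reads in LF/LCL against 82.1, 70.7 and 99.8 in SF/SCL, and SF/SCL replicates 1 and 3 lay between the LF/LCL cows. GATA3, the transcription factor of type 2 helper cells, which many epithelia also express, had 11.7 and 6.78 normalized reads in LF/LCL against 5.20, 12.4 and 18.2 in SF/SCL and overlapped fully. Their log2 fold changes were 1.08 ± 0.54, 0.24 ± 0.31 and -0.23 ± 0.70, with limma adjusted p of 0.51, 0.817 and 0.933. In total 15 of the 17 T lineage entries tested were higher in LF/LCL, with a median log2 fold change of 0.62. The groups did not overlap, with LF/LCL higher, in 10 of the 17 (58.8%, against 15% of all genes tested). CD3E and CD52 were on lists that the study drew from these same libraries, so their direction is not independent evidence.

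**Figure D3:**
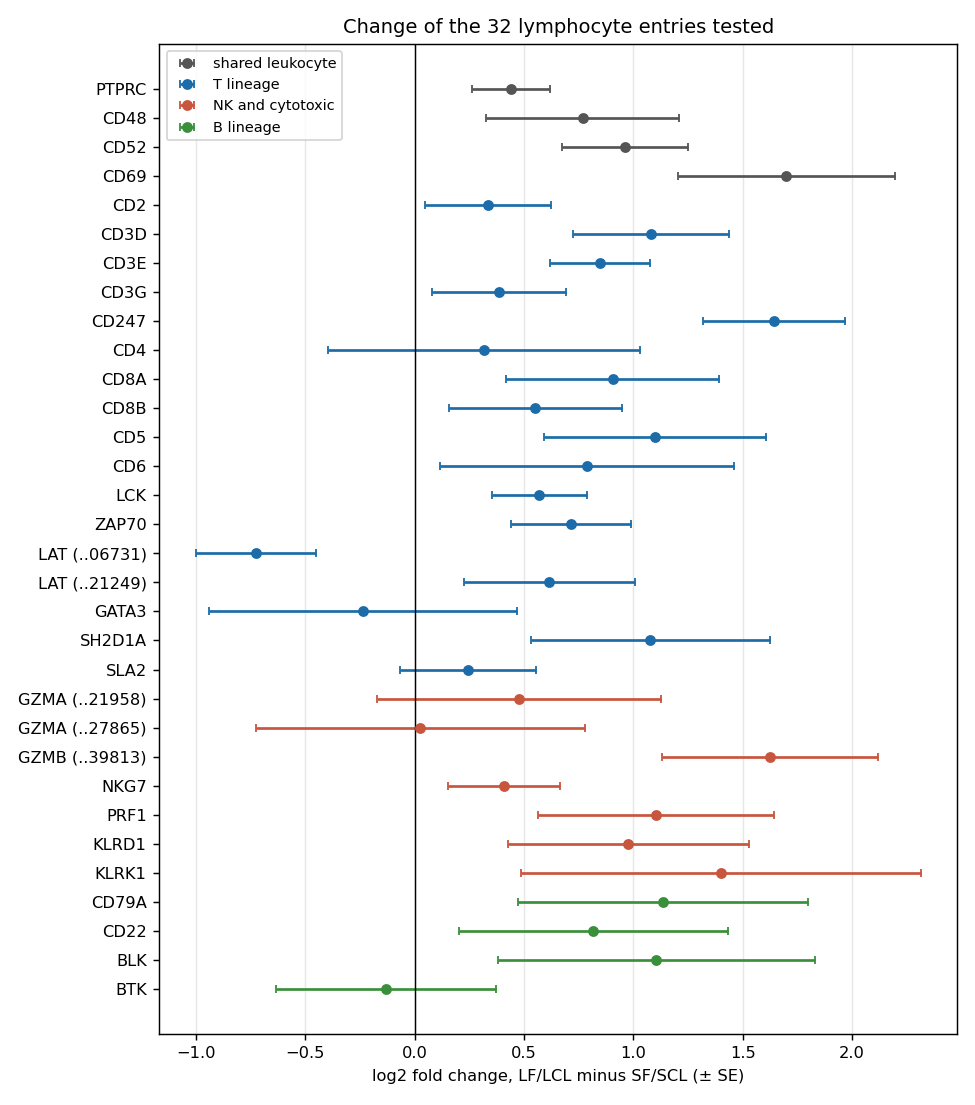
Log2 fold change (LF/LCL minus SF/SCL) of the 32 entries tested, with the standard error from limma as the bar, coloured by lineage; the line at 0 means equal levels. Of the 32 points 29 lie to the right of 0, and LAT (ENSBTAG00000006731), GATA3 and BTK lie to the left.

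Cytotoxic and NK cell genes were higher in LF/LCL in 7 of 7 entries tested, with a median log2 fold change of 0.98. GZMB (ENSBTAG00000039813), a granzyme that triggers death of the target cell, had 41.0 and 27.1 normalized reads in LF/LCL against 12.5, 7.77 and 10.7 in SF/SCL (log2 fold change 1.62 ± 0.49 (SE), limma adjusted p 0.336). The other entry of that symbol, GZMB (ENSBTAG00000010057), had 0 reads in all 5 libraries, which allows up to 2.33 to 3.52 normalized reads per library. PRF1, the pore-forming perforin, had 80.9 and 80.3 normalized reads in LF/LCL against 22.9, 73.1 and 30.0 in SF/SCL. The LF/LCL cows were nearly equal and SF/SCL replicate 2 was not far below, while SF/SCL replicates 1 and 3 were well under it.

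KLRD1 (CD94), the partner chain of the NKG2 receptors, had the same arrangement, with 24.6 and 26.1 normalized reads in LF/LCL against 10.4, 21.0 and 8.59 in SF/SCL. KLRK1 (NKG2D), an activating receptor of NK and cytotoxic T cells, had 28.1 and 21.3 normalized reads in LF/LCL against 2.08, 21.8 and 11.8 in SF/SCL, so that SF/SCL replicate 2 lay within the LF/LCL range. NKG7, a granule membrane protein, had 128 and 109 normalized reads in LF/LCL against 88.4, 77.7 and 102 in SF/SCL, without overlap. Log2 fold changes were 1.10 ± 0.54 for PRF1, 0.98 ± 0.55 for KLRD1, 1.40 ± 0.91 for KLRK1 and 0.41 ± 0.26 for NKG7, and limma adjusted p was 0.495, 0.555, 0.61 and 0.594 in that order. Granzyme A, another protease of cytotoxic granules, did not separate the groups. GZMA (ENSBTAG00000021958) had 28.1 and 27.1 normalized reads in LF/LCL against 40.5, 18.7 and 9.66 in SF/SCL, highest in SF/SCL replicate 1, and GZMA (ENSBTAG00000027865) had 5.86 and 17.4 normalized reads in LF/LCL against 7.28, 6.99 and 19.3 in SF/SCL, highest in SF/SCL replicate 3. The groups overlapped in both, and log2 fold changes were 0.48 ± 0.65 and 0.03 ± 0.75, with limma adjusted p of 0.831 and 0.994.

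B lineage genes had few reads, and their higher level in LF/LCL depended largely on 1 cow. CD79A (ENSBTAG00000001882), a signaling chain of the B cell receptor, had 22.3 and 42.6 normalized reads in LF/LCL against 18.7, 6.22 and 20.4 in SF/SCL. CD22, an inhibitory coreceptor of B cells, had 19.9 and 53.2 normalized reads in LF/LCL against 12.5, 16.3 and 29.0 in SF/SCL. BLK, a SRC family kinase of B cells, had 10.6 and 35.8 normalized reads in LF/LCL against 13.5, 8.55 and 5.37 in SF/SCL. LF/LCL replicate 2 was the highest library for all 3, and LF/LCL replicate 1 lay inside the SF/SCL range for CD22 and BLK. For CD79A the groups did not overlap, but LF/LCL replicate 1 (22.3) was only just above SF/SCL replicate 3 (20.4). Log2 fold changes were 1.14 ± 0.66, 0.82 ± 0.62 and 1.10 ± 0.72, with limma adjusted p of 0.57, 0.668 and 0.614. BTK, a kinase of B cells that myeloid cells share, had 38.7 and 73.6 normalized reads in LF/LCL against 64.5, 35.8 and 86.9 in SF/SCL, with a log2 fold change of -0.13 ± 0.50, a limma adjusted p of 0.95 and full overlap.

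Both remaining B cell markers missed the filter. MS4A1, the CD20 antigen, had 0 and 12 reads in LF/LCL against 4, 2 and 2 reads in SF/SCL, and CD79B had 3 and 7 reads in LF/LCL against 4, 4 and 0 reads in SF/SCL. The 0 of MS4A1 in LF/LCL replicate 1 allows up to 3.52 normalized reads, and that of CD79B in SF/SCL replicate 3 allows 3.22. MS4A1, too, was highest in LF/LCL replicate 2. The median log2 fold change of the 4 B lineage entries tested was 0.96, and it was 0.20 without LF/LCL replicate 2 and 1.55 without LF/LCL replicate 1.

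Summed over the entries of a lineage, levels separated the groups for T and cytotoxic genes and not for B cell genes. The T lineage sum was 2326 and 2949 normalized reads in LF/LCL against 1425, 1765 and 1725 in SF/SCL, and the ratio of the group means was 1.61. It was 1.32 without CD247 and 1.89 without LAT (ENSBTAG00000006731). NK and cytotoxic genes summed to 337 and 309 normalized reads in LF/LCL against 184, 227 and 192 in SF/SCL, again a ratio of 1.61. The B lineage sum was 95 and 224 normalized reads in LF/LCL against 117, 71.5 and 144 in SF/SCL, which overlapped, with a ratio of 1.44 that became 0.856 without LF/LCL replicate 2. Shared leukocyte genes summed to 965 and 1227 normalized reads in LF/LCL against 845, 585 and 774 in SF/SCL, a ratio of 1.49. Relative to the T lineage sum of the same library, NK and cytotoxic genes stood at 0.145 and 0.105 in LF/LCL against 0.129, 0.129 and 0.111 in SF/SCL, and B lineage genes at 0.0408 and 0.0758 against 0.0824, 0.0405 and 0.0834. Neither proportion separated the groups. Differences between the lineages were not tested.

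**Figure D4:**
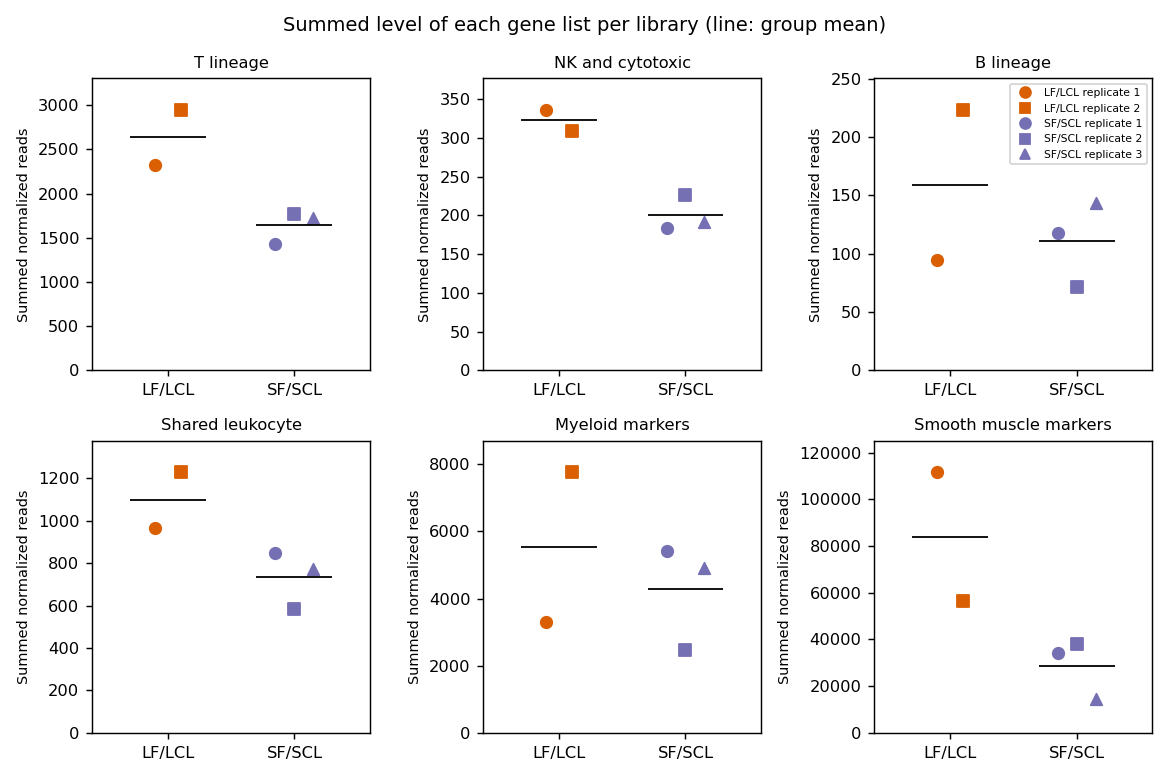
Summed normalized reads of the T lineage, NK and cytotoxic, B lineage and shared leukocyte genes and of the myeloid and smooth muscle marker lists, with 1 point per library and a line at the group mean; each y axis starts at 0. The LF/LCL points lie above the SF/SCL points in the panels for T lineage, NK and cytotoxic, shared leukocyte and smooth muscle genes, and overlap with them for B lineage and myeloid genes.

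Other genes of the same cells were read from lists that hold none of the members (TYROBP, of the NK list, is also a myeloid marker). Of the 22 further genes of T cell receptor signaling, 21 entries were tested, 17 were higher in LF/LCL and 8 of these had an unadjusted p under 0.05 (38.1%, against 5.64% of all genes), while 0 had an adjusted p under 0.05 with limma. PLCG1, BCL10 and VAV1, among these 8, stood on the study's lists of genes higher in LF/LCL, drawn from these same libraries. The share is therefore not independent evidence. The 3 with the smallest p were the adaptors SKAP1 and LCP2 and the phospholipase PLCG1. LCP2 (SLP-76), which LAT recruits, had 246 and 270.1 normalized reads in LF/LCL against 146, 90.2 and 135 in SF/SCL. SKAP1 had 1810 and 1533 normalized reads in LF/LCL against 1112, 1196 and 1002 in SF/SCL. The mean of SKAP1 over all libraries, 1331, was above those of CD3E (217) and PTPRC (636), and which cells expressed it was not tested. PLCG1, which is not particular to lymphocytes, had 1640 and 1419 normalized reads in LF/LCL against 1197, 1154 and 1130 in SF/SCL. Log2 fold changes were 1.08 ± 0.27, 0.60 ± 0.13 and 0.39 ± 0.11, and all 3 were higher in both LF/LCL cows than in any SF/SCL cow.

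Of 14 other T cell genes tested, 10 were higher in LF/LCL, with a median log2 fold change of 0.69. IL2RG, the common gamma chain of interleukin receptors, had 163 and 191 normalized reads in LF/LCL against 83.2, 72.3 and 91.2 in SF/SCL. SASH3, a lymphocyte adaptor, had 141 and 164 normalized reads in LF/LCL against 76.9, 70.7 and 88.0 in SF/SCL. For CD7, a T and NK cell antigen, values were 90.3 and 84.2 normalized reads in LF/LCL against 48.9, 37.3 and 48.3 in SF/SCL. All 3 were free of overlap, with log2 fold changes of 1.10 ± 0.24, 0.95 ± 0.25 and 0.96 ± 0.31, and they had the smallest p of this list. IL2RG, SASH3 and CD7 stood on the study's lists from these libraries as well, so their direction is not independent evidence.

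Among 16 other NK and cytotoxic genes tested, 15 were higher in LF/LCL (median 0.88), and again the 3 with the smallest p did not overlap. IL2RB, a receptor chain for interleukins that sustain NK cells, had 200.54 and 155 normalized reads in LF/LCL against 68.6, 80.0 and 96.6 in SF/SCL. HCST, the DAP10 adaptor of NKG2D, had 31.7 and 39.7 normalized reads in LF/LCL against 11.4, 9.33 and 5.37 in SF/SCL. KLRC1, an inhibitory partner of KLRD1, had 9.38 and 12.6 normalized reads in LF/LCL against 1.04, 2.33 and 3.22 in SF/SCL. Log2 fold changes were 1.11 ± 0.27, 1.96 ± 0.53 and 1.96 ± 0.73. KLRC1, KLRF1, KLRJ1 and GZMM had an SF/SCL mean below the filter and passed it through LF/LCL. The filter therefore favoured a higher level in LF/LCL for these genes. In the 3 lists of other T cell receptor signaling, T cell, and NK and cytotoxic genes, limma and the quasi-likelihood test called 0. DESeq2 called SKAP1, LCP2, IL2RG, SASH3 and IL2RB there, where it called 1.38% of all genes as higher in LF/LCL.

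Of 16 other B cell and plasma cell genes tested, 12 were higher in LF/LCL with a median of 0.26. The groups did not overlap, with LF/LCL higher, in 1 of the 16 (6.25%, against 15% of all genes tested). This was the B cell linker BLNK, with 216 and 331 normalized reads in LF/LCL against 185, 156 and 122 in SF/SCL (log2 fold change 0.81 ± 0.28). FCRLA, an Fc receptor-like protein of B cells, had 7.04 and 41.6 normalized reads in LF/LCL against 9.36, 1.55 and 7.51 in SF/SCL, so that LF/LCL replicate 2 again stood alone. MZB1, a chaperone of antibody-secreting cells, had 122 and 106 normalized reads in LF/LCL against 175, 113 and 186 in SF/SCL and was higher in SF/SCL on average. PAX5, the defining transcription factor of B cells, had 0 reads in every library.

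**Figure D5:**
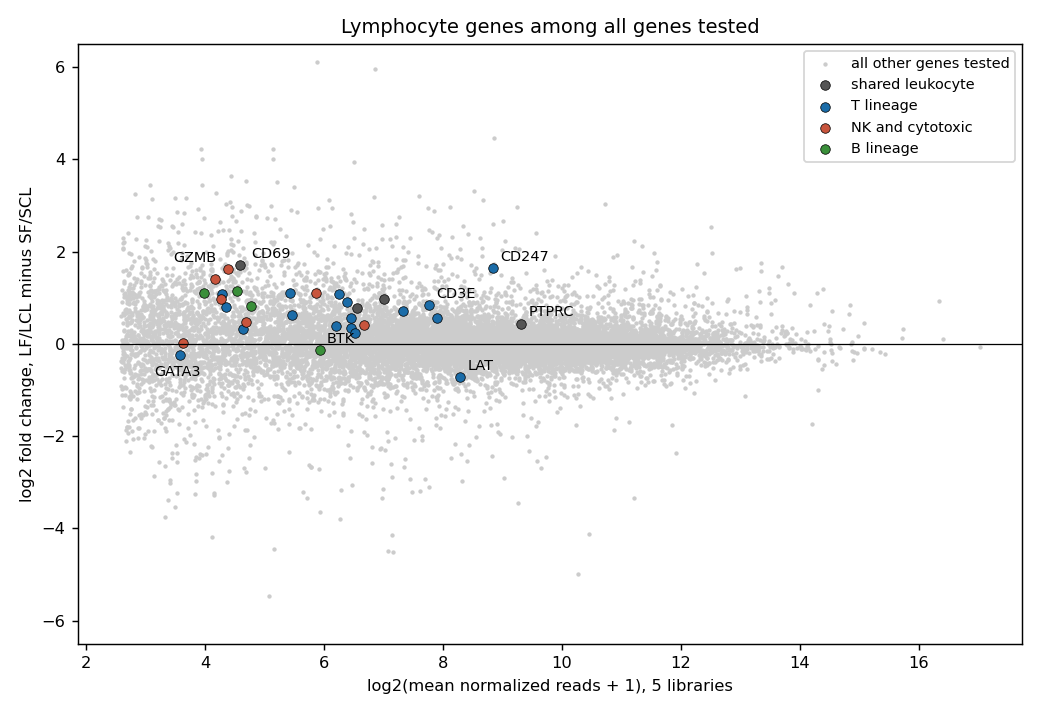
Log2 fold change (LF/LCL minus SF/SCL) on the y axis against the log2 of the mean normalized reads + 1 over the 5 libraries on the x axis, for all 15815 genes tested; grey points are other genes and coloured points the 32 lymphocyte entries by lineage. The coloured points lie mostly above 0, with a median of 0.78 against 0.01 over all genes, and within the spread of the grey points at the same level.

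Markers of other cell types also differed between the groups, although limma and the quasi-likelihood test called 0 of them. DESeq2 called 4 smooth muscle, 2 mast cell and granulocyte and 1 epithelial marker as higher in LF/LCL (against 1.38% of all genes). It called 3 ciliated cell and 1 epithelial marker as higher in SF/SCL (against 238 of all 15815 genes). Of 9 smooth muscle markers tested 9 were higher in LF/LCL (median 1.47), 8 at a limma unadjusted p under 0.05 (against 5.64% of all genes). Their sum was 56335 to 111521 in LF/LCL against 14344 to 37964 in SF/SCL. Ciliated cell markers were higher in LF/LCL in 0 of 10 (median -0.52). For 8 the limma unadjusted p was under 0.05 with SF/SCL higher (against 5.86% of all genes). Sums were 33520 to 38756 in LF/LCL against 48275 to 52420 in SF/SCL. Myeloid markers were higher in 11 of 14 (median 0.30, 0 at an unadjusted p under 0.05), and their sums overlapped at 3299 to 7756 in LF/LCL against 2478 to 5412 in SF/SCL, with the highest value in LF/LCL replicate 2. Mast cell and granulocyte markers were higher in 5 of 5 (median 1.36), 2 at a limma unadjusted p under 0.05 (against 5.64% of all genes). KIT, which is not particular to these cells, made up most of their sum.

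The 2 below this p, named after their values were seen, were S100A8 and S100A12, calcium-binding proteins of neutrophils and monocytes. S100A8 had 38.7 and 29.0 normalized reads in LF/LCL against 1.04, 0 and 2.15 in SF/SCL, where the 0 allows up to 2.33. S100A12 had 244 and 241 normalized reads in LF/LCL against 59.3, 103 and 86.9 in SF/SCL. Both were higher in both LF/LCL cows than in any SF/SCL cow. S100A8 passed the filter through LF/LCL and stood on the study's lists from these same libraries, so its direction is not independent evidence. S100A9, of the same family, had 11.7 and 11.6 normalized reads in LF/LCL against 9.36, 3.89 and 9.66 in SF/SCL (log2 fold change 0.64). The granulocyte markers CSF3R and MPO, with means of 1.66 and 2.28, missed the filter. The part of these cells in the shared leukocyte values was not tested. At a limma unadjusted p under 0.05, 3 epithelial markers were higher and 1 was lower in LF/LCL (against 5.64% and 5.86% of all genes). Counts of entries higher in LF/LCL were 8 of 9 for stromal fibroblasts, 5 of 7 for endothelium, 5 of 8 for epithelium and 3 of 3 for red blood cells. Sums overlapped between the groups in these 4 lists and for mast cells and granulocytes, at 35234 to 84570 in LF/LCL against 22041 to 49380 in SF/SCL for fibroblasts, 3203 to 5858 in LF/LCL against 2944 to 5094 in SF/SCL for endothelium, 149795 to 177775 in LF/LCL against 152294 to 180146 in SF/SCL for epithelium, 3654 to 5046 in LF/LCL against 3384 to 4158 in SF/SCL for mast cells and granulocytes and 90.0 to 528 in LF/LCL against 32.2 to 257 in SF/SCL for red cells. The red cell entries tested were AHSP and a pair that share the symbol HBA. Both HBA entries were highest in LF/LCL replicate 1 and next highest in SF/SCL replicate 2. ALAS2, which makes heme in red cells, had 0 reads, and none of the markers found in the other cell type lists was at 0. The part of tissue composition in the lymphocyte values was not tested.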

How the data were processed

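Poly(A) libraries from the ampulla were sequenced in pairs by the authors, who filtered reads with seqyClean, mapped them with TopHat2 2.0.8 and Bowtie2 2.1.0 to the masked Bos taurus UMD 3.1 assembly and counted uniquely mapped reads with HTSeq 0.5.4p2. Use of strand was not stated. The deposited unit is a normalized signal, the count of a gene divided by a DESeq 1.12.1 size factor for its library. Each nonzero value was within 0.1 of a whole multiple of the value of 1 read (100% in each library), so whole reads were recovered. Totals bound the precision of genes with few reads.

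Values were tested with limma 3.58.1 on log2(value + 1) (trend and robust, two-sided, no covariates) for genes with a mean over 5, with Benjamini-Hochberg adjustment over all 15815 genes. Fold changes are LF/LCL over SF/SCL on that scale and understate those of low genes. The study's own test, of the first DESeq version, was not run. The edgeR 4.0.16 quasi-likelihood test and DESeq2 1.42.0 ran on the recovered reads. The other alternatives were a pseudocount of 0.5 or 5, no filter, the study's added filter (mean above the SD), TMM scaling, plain moderation and leaving out each library. Scripts were tested on simulated data. Members and lists were chosen with earlier results of these data known. All members are named, with values in every library or reads where few, and of each list of other lymphocyte genes the 3 with the smallest p. Replicates are numbered in accession order, and the labels name no batch. Sensitivity to the T lineage entries, the summed levels and the number of members higher in LF/LCL were added after seeing the data.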

Additional observations from a re-analysis of the deposited data

How the results depend on the processing

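With 2 and 3 cows per group and few reads for the B cell genes, single libraries set several values. The number of members higher in LF/LCL, 29 of 32, was 29 under both count tools, both other pseudocounts, the study's added filter and TMM scaling, 32 of 36 without a filter, and 27 to 31 when 1 library was left out. The count with no overlap and higher in LF/LCL, 19, was 19 to 20 under the other filters and TMM scaling. It was 21 to 25 with 1 library left out, where the share of all genes also went up, from 15% to between 20.6% and 28.9%. DESeq2 called 1 member (CD247), and limma and every other setting called 0. Leaving out 1 library gave 2 to 9 members at an unadjusted p under 0.05 in LF/LCL, against 3.95% to 5.18% of all genes, with 2 without LF/LCL replicate 2, near the 4.82% of all genes there, and 0 to 1 in SF/SCL, where the quasi-likelihood test and plain moderation gave 0 in place of 1. Without 1 library the count with no overlap and higher in SF/SCL ran from 1 to 3. The same omissions gave a median log2 fold change of the members between 0.56 and 0.99, the lower value without LF/LCL replicate 2, that of NK and cytotoxic genes from 0.74 to 1.34, and that of B lineage genes from 0.20 to 1.55. The ratio of B lineage sums ran from 0.856 to 2.02, and that of T lineage sums became 1.32 without CD247 and 1.89 without LAT (ENSBTAG00000006731).

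Signs turned for members near 0 when a library was left out. CD4 ran from -0.79 to 1.42, GATA3 from -0.69 to 0.12, SLA2 from -0.043 to 0.53, GZMA (ENSBTAG00000027865) from -0.69 to 0.74 and BTK from -0.59 to 0.32. Without LF/LCL replicate 2 CD4, SLA2, GATA3 and this GZMA entry turned, as did GATA3 and BTK without SF/SCL replicate 3, BTK without LF/LCL replicate 1 and GZMA without SF/SCL replicate 1 or 2. The causes of these moves were not tested. TMM scaling moved the median of all genes from 0.005 to 0.003 and turned no sign. No paired analysis was possible because each library came from a different cow.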

Other observations

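Some lymphocyte genes outside the members were singled out after their values were seen. FOXP3, the transcription factor of regulatory T cells, had 31.7 and 33.9 normalized reads in LF/LCL against 19.8, 14.0 and 6.44 in SF/SCL, without overlap between the groups (log2 fold change 1.35, limma adjusted p 0.455). LF/LCL replicate 2 also had the highest value of CD38, an ectoenzyme of plasma cells and activated lymphocytes, with 2.35 and 97.8 normalized reads in LF/LCL against 14.6, 4.66 and 8.59 in SF/SCL. The J chain gene IGJ, which links polymeric antibodies, had 4045 and 3513 normalized reads in LF/LCL against 3569, 1308 and 6530 in SF/SCL, highest in SF/SCL replicate 3.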
